A study of Mus musculus with 2 samples.

Results

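The genes described here are 10 immediate early or related stress-response genes of the mouse, Fos, Fosb, Jun, Junb, Jund, Egr1, Ier2, Dusp1, Nr4a1 and Klf2, chosen by name from the 31017 gene symbols of a single-cell RNA sequencing study of spleen. Each was measured in unique molecular identifiers (UMIs), which count captured transcript molecules, and all 10 were detected. The labels name 2 spleen samples from mice of 6 to 8 weeks, 1 from a knockout mouse used as a model of Wiskott-Aldrich syndrome (WAS-KO) and 1 from a wild-type (WT) mouse. The knockout removes WASP, an actin regulator of blood cells, and the labels give no other allele, agent or stimulus. All counts stood in 1 table in which no barcode was tied to a sample, so WAS-KO and WT cells were not compared. All barcodes carry 1 shared suffix, so no barcode overlap between libraries could be counted. The values below compare cell types within that table. The share of each sample within a cell type is not known, so the part of genotype in these values could not be told apart. Cells are not replicates of a condition, so no p-value was computed. Intervals are at 95% and cover counting error only.

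Immediate early genes are transcribed within minutes of a stimulus, without new protein synthesis, when MAP kinase, calcium or stress signals reach transcription factors already present on their promoters. Several of their products are themselves transcription factors that carry the response to a second set of genes, and others switch the signal off again. The same genes are induced when tissue is cut, warmed or enzymatically dissociated, so in dissociated spleen their transcripts can be signs of signalling in the animal or of cell handling. Klf2 is regulated differently from the rest: it is high in resting lymphocytes, where it maintains quiescence and the receptors for recirculation, and it is lost on activation. Jund is likewise the most constitutive of the JUN genes.

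After barcodes with fewer than 200 genes or over 10% mitochondrial UMIs were removed, 6588 of 7524 remained, with a median of 5339 UMIs. A cell was assigned to a type when it held at least 3 UMIs over at least 2 lineage markers and at least 2 times the UMIs of any other marker list that passed. This gave 1011 T, 336 NK, 72 plasma, 454 macrophage, 189 monocyte, 196 neutrophil, 95 conventional dendritic, 464 erythroid and 2960 B cells. Median depth ran between 826.5 UMIs in macrophages and 28168.5 UMIs in plasma cells. Levels are CPM, the summed UMIs of a gene over all UMIs of the type, scaled to 1000000. As a measure of free RNA, Cd79a, part of the B cell receptor, was read outside B cells, where it was 3345 CPM. It stood at 31.5 CPM in T, 32.8 in erythroid, 38.8 in monocyte and 46.9 in dendritic cells. It was 56.7 CPM in neutrophils, 65.4 in macrophages and 98.3 in NK cells. Plasma cells, which descend from B cells, held 449 CPM. Of the monocyte-gated cells, 10 of 189 held at least 2 UMIs of Mpo, a gene of myeloid precursors and neutrophil granules.

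The promoters of 4 members, Fos, Junb, Dusp1 and Nr4a1, are shown first, to place the values beside the sequences from which the genes are transcribed. Each runs from 250 bases before to 50 bases after the RefSeq transcription start on the gene's strand, in build GRCm38.p6. Capitals mark TGACG, a core motif of cyclic AMP response elements, or CGTCA, the same motif on the other strand. They also mark the full palindrome TGACGTCA and TATAAA, the letters of a TATA box. All were searched on both strands, and each TGACGTCA holds a TGACG on either strand. The Fos window is chr12:85473640-85473939 on the plus strand, that of Junb chr8:84978699-84978998 on the minus strand, that of Dusp1 chr17:26508423-26508722 on the minus strand and that of Nr4a1 chr15:101266596-101266895 on the plus strand.
Fos: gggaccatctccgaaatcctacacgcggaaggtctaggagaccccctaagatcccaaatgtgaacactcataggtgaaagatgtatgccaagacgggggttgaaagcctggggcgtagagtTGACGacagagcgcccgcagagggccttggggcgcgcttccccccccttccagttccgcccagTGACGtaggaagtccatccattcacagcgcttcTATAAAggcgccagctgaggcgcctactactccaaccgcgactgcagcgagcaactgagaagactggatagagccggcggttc
Junb: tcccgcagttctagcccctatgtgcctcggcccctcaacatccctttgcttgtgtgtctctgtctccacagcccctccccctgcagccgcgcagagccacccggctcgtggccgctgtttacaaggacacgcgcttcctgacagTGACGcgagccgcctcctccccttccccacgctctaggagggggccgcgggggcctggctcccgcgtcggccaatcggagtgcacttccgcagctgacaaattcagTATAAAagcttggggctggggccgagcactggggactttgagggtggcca
Dusp1: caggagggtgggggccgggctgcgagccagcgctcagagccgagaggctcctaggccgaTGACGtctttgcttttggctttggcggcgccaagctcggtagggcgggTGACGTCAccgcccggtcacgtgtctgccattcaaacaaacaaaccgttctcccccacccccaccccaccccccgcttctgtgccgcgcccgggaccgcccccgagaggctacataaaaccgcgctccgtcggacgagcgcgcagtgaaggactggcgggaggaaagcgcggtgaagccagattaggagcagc
Nr4a1: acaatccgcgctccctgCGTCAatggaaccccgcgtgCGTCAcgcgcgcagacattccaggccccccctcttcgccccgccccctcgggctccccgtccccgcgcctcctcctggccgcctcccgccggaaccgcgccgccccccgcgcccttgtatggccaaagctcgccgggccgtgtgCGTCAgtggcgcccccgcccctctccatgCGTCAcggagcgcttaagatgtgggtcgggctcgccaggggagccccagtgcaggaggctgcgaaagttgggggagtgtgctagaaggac
In these windows TGACG began 129 and 66 bases before the start of Fos and 106 bases before that of Junb. The palindrome of Dusp1 lay 143 bases before its start, and Nr4a1 held the motif 4 times. Of the 8 members with a window, 6 held TGACG (Fos, Fosb, Junb, Dusp1, Nr4a1 and Klf2), against 20.8% of 32851 mouse promoter windows of the same length. The Jund window, which held none of the motifs, was chr8:70697489-70697788 on the plus strand. It did not reach the Jund start of a second annotation, GENCODE, at 70698949. Nor did the windows of Dusp1 and Nr4a1 reach their GENCODE gene starts, at 26562128 and 101254269. Their motif positions hold for the RefSeq starts only. TATAAA was in 2 of the 8, Fos and Junb, against 13.6% of all windows. It began 33 bases before the start of Fos, but in Junb at base 1, the RefSeq start itself, so there it was not upstream. The distance given for TGACG in Junb holds for that RefSeq start only. TGACGTCA was in 1, Dusp1, against 1.79%. The AP-1 motif TGACTCA was in 0 of the 8, against 5.20%, and the CArG box, the motif of serum response factor, was in 0 of the 8, against 1.63%. Motifs this rare can be absent from 8 windows, and sites farther than 250 bases before a start were not searched. These absences therefore say nothing about the members as a set. Egr1 and Ier2 had no window. A match is a description of the letters in the window.

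Levels are given first for the FOS subunits, by summed UMIs. Fos, the classic induced partner of JUN in the AP-1 dimer, stood at 1002 CPM in monocytes, 912 in plasma cells, 577 in neutrophils, 328.5 in dendritic cells, 216 in T cells, 182 in NK cells, 171 in macrophages and 23.1 in erythroid cells, against 472 CPM in B cells. Every neighbouring pair in that order had separate intervals except NK cells and macrophages. Summed UMIs weight deep cells more, and the mean of per-cell Fos CPM gave another order, with 1459 in neutrophils, 1009 in monocytes and 825 in plasma cells, against 503 in B cells. By that mean neutrophils were also first in Dusp1, Junb, Egr1 and Ier2. Fosb, which encodes a related partner, was distributed otherwise. It stood at 330 CPM in plasma cells, 127 in dendritic cells, 111 in macrophages, 80.9 in monocytes, 43.9 in NK cells, 23.0 in T cells, 17.7 in neutrophils and 9.02 in erythroid cells, against 249 CPM in B cells. Dendritic cells, macrophages and monocytes overlapped their neighbours in this order, as did T cells and neutrophils. Monocytes and neutrophils were therefore high in Fos and low in Fosb, while B cells and plasma cells held both.

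Thinning each cell to 1000 UMIs put the types on 1 total depth. Haemoglobin was 697007 CPM in erythroid cells and 3894 CPM in B cells. Most thinned UMIs of erythroid cells were thus haemoglobin, and their shares are a low estimate of free RNA. After thinning, 0.871% of erythroid cells held a Fos UMI and 0.218% a Fosb UMI, against 34.9% and 20.6% of B cells in the same order. Median depths before thinning were 11708.5 UMIs in erythroid and 5144.5 in B cells, and the unthinned Fos shares were 10.6% in erythroid and 73.4% in B cells. In T cells, 2.39% held a Fosb UMI after thinning, and 10.4% held one over all their UMIs.

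The 3 JUN genes divided the cell types in another way. Jun, the inducible founding member, was 432 CPM in plasma cells, 417 in dendritic cells, 230 in monocytes, 172 in NK cells, 164 in macrophages, 136 in T cells, 45.8 in neutrophils and 25.4 in erythroid cells, against 317 CPM in B cells. Plasma and dendritic cells overlapped, as did NK cells with macrophages and macrophages with T cells. Junb, which can restrain JUN and acts in T cell differentiation, was 783 CPM in NK cells, 549 in T cells, 395 in monocytes, 389 in neutrophils, 259 in dendritic cells, 127 in macrophages, 73.1 in plasma cells and 24.8 in erythroid cells, against 374 CPM in B cells. Monocytes, neutrophils and B cells did not separate. Plasma cells, first in Jun and Fosb, were thus next to last in Junb. Jund was 755 CPM in NK cells, 571 in plasma cells, 537 in T cells, 362 in monocytes, 323 in dendritic cells, 201 in macrophages, 190 in neutrophils and 188 in erythroid cells, against 962 CPM in B cells. Plasma cells overlapped T cells, monocytes overlapped dendritic cells, and macrophages, neutrophils and erythroid cells overlapped. In erythroid cells it was the highest of the 10, ahead of Jun at 25.4 CPM, and 14.6% of thinned erythroid cells held it.

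Expressed as shares of the UMIs of the 5 AP-1 genes, the types had distinct mixtures. FOS subunits made up 53.6% of AP-1 UMIs in plasma cells, 52.3% in monocytes, 48.8% in neutrophils, 16.4% in T cells and 11.7% in NK cells, against 30.4% in B cells. Junb supplied 40.4% in NK cells, 37.6% in T cells, 31.9% in neutrophils and 3.15% in plasma cells, against 15.8% in B cells. Jund was the largest share in B cells, at 40.5%, and in erythroid cells, at 69.5%. Jun was 3.76% of the mixture in neutrophils, against 13.4% in B cells.

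**Figure D1:**
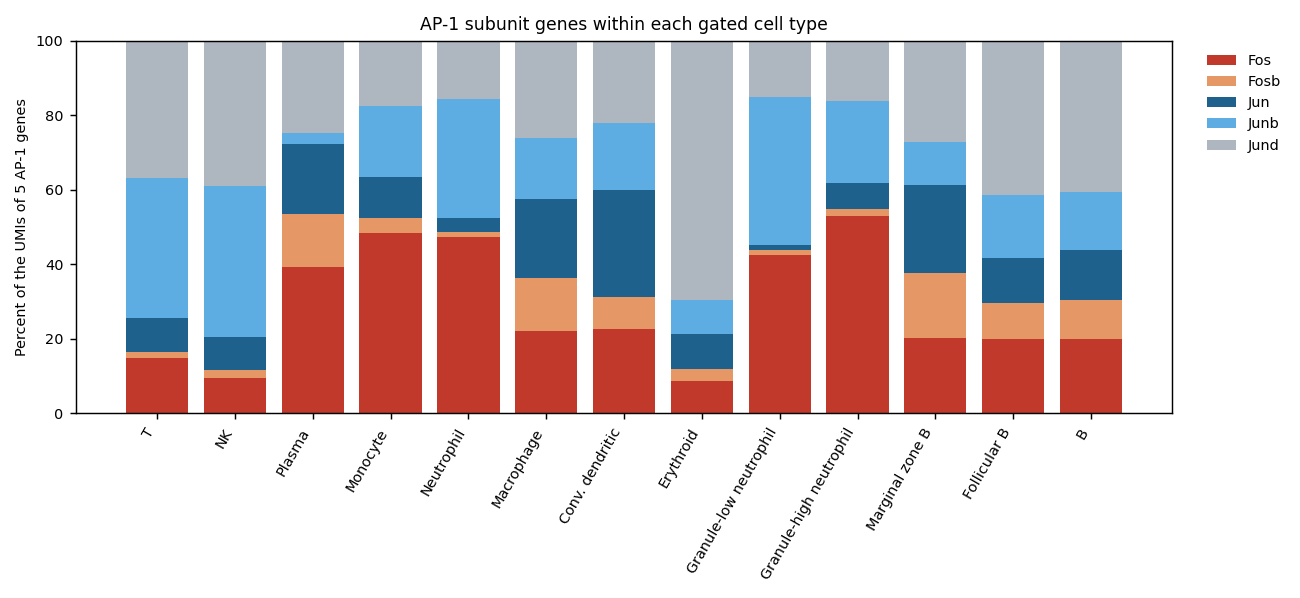
Share of AP-1 UMIs (percent, vertical axis) supplied by Fos, Fosb, Jun, Junb and Jund in each gated type and in 4 subsets. Monocytes and neutrophils are led by Fos, T and NK cells by Junb and Jund, and B cells by Jund; marginal zone B cells hold more Jun and Fosb and less Jund than follicular B cells.

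Egr1, a zinc finger factor induced by ERK signalling, stood at 127 CPM in dendritic cells, 73.8 in macrophages, 70.7 in neutrophils, 51.1 in plasma cells, 44.8 in T cells, 29.7 in NK cells, 10.8 in monocytes and 4.25 in erythroid cells, against 28.3 CPM in B cells. The intervals of neighbouring types overlapped from dendritic cells down to T cells, and NK cells overlapped B cells. Monocytes, first in Fos by summed UMIs, were next to last in Egr1 by the same measure, apart from both neighbours. Nr4a1, an orphan nuclear receptor that reports antigen receptor signalling in lymphocytes and is required for nonclassical monocytes, stood at 240 CPM in monocytes, 55.2 in dendritic cells, 52.0 in macrophages, 32.4 in NK cells, 25.4 in neutrophils, 22.1 in T cells and 3.06 in erythroid cells, against 20.1 CPM in B cells. Plasma cells held 1 Nr4a1 UMI in all, or 0.511 CPM. Monocytes stood apart from all other types, and from dendritic down to B cells each type overlapped the next.

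Ier2, a short-lived nuclear protein of the early response, was 454 CPM in NK cells, 313 in neutrophils, 242 in monocytes, 148 in T cells, 127 in dendritic cells, 91.5 in plasma cells, 43.6 in macrophages and 21.1 in erythroid cells, against 112 CPM in B cells. T, dendritic and B cells overlapped in turn. Dusp1, the phosphatase that switches off p38 and JNK, was 694 CPM in monocytes, 504 in neutrophils, 384 in dendritic cells, 189 in NK cells, 166 in macrophages, 143 in T cells, 26.1 in plasma cells and 25.0 in erythroid cells, against 143 CPM in B cells. NK cells, macrophages, T cells and B cells overlapped in turn, and plasma cells overlapped erythroid cells. Klf2 was 1739 CPM in NK cells, 942 in T cells, 650 in monocytes, 442 in neutrophils, 294 in plasma cells, 293 in dendritic cells, 144 in macrophages and 20.9 in erythroid cells, against 1325 CPM in B cells. Plasma cells overlapped dendritic cells, and every other neighbouring pair was separate. After thinning, 65.8% of B cells held a Klf2 UMI, so it was the most widely detected of the 10 there.

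**Figure D2:**
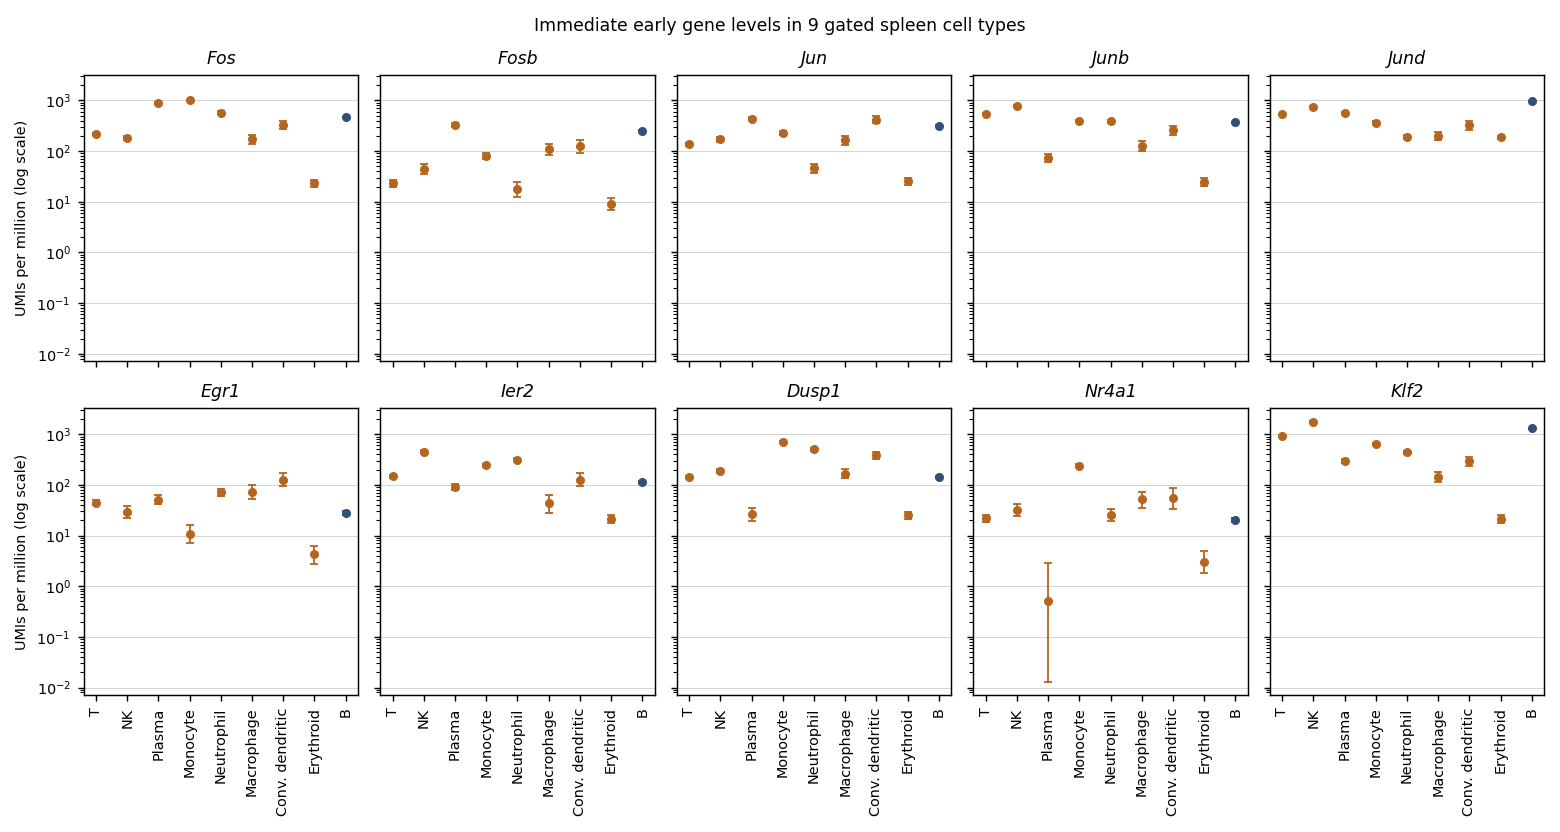
Level of each member (CPM on a log axis, with 95% Poisson intervals for counting error) in the 9 gated cell types, B cells last. Erythroid cells are lowest for 9 of the 10 members; plasma cells lie lowest for Nr4a1, at 0.511 CPM.

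Levels in macrophages and dendritic cells rested on few deep barcodes. Only 18 of 454 macrophage barcodes had at least 4000 UMIs, and these gave 511 CPM of Fos and 541 CPM of Jun, while the 381 barcodes under 1500 UMIs gave 25.9 CPM of Fos and 0 UMIs of Jun. Haemoglobin made up 264114 CPM in those 18 barcodes. The mean of per-cell Fos CPM over all macrophages was 42.7. Of dendritic cells, 29 of 95 had at least 4000 UMIs, with 506 CPM of Fos and 637 CPM of Jun, and their 46 barcodes of intermediate depth had 49.9 CPM of Fos and 83.2 CPM of Jun. The part of depth, or of other cells or free RNA in the deep barcodes, in these levels was not tested.

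A ratio between types was called where it was at least 2-fold, its interval left out 1 and the gene had at least 100 UMIs over both types. Against B cells, T cells were lower in 3 of 10 members and higher in 0, while 10.6% of 9387 genes were called lower and 8.17% higher. These were Fosb (log2 ratio -3.44), Jun (-1.22) and Fos (-1.12), and the Fos ratio became -0.81 when only cells with up to 5% mitochondrial UMIs were kept. NK cells were higher in Ier2 (2.02) and Junb (1.06) and lower in Fosb (-2.50) and Fos (-1.37), beside 11.2% of genes called higher and 11% lower. Junb in NK cells over B cells fell under 2-fold, at 0.86, with median-of-ratios size factors. Set directly against T cells, NK cells were higher in 1 member, Ier2 (1.62), and lower in 0, beside 9.02% of genes called higher and 6.29% lower. Among the members, Fosb had the ratio farthest from 1 in T and in NK cells against B cells.

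Monocytes were higher than B cells in 4 members, Nr4a1 (log2 ratio 3.57), Dusp1 (2.28), Ier2 (1.11) and Fos (1.09), beside 15.6% of genes called higher. They were lower in another 4, Fosb (-1.62), Jund (-1.41), Egr1 (-1.38) and Klf2 (-1.03), beside 16% called lower. The last 2 of these became -0.41 and -0.66 with the 5% mitochondrial maximum. Dendritic cells were higher than B cells in Egr1 (2.17), Nr4a1 (1.46) and Dusp1 (1.43) and lower in Klf2 (-2.18) and Jund (-1.57), beside 7.78% of genes called higher and 20.5% lower. Nr4a1 in dendritic cells over B cells was 0.19 without the cells that Scrublet called doublets. The 3 higher calls rested on the 29 deep barcodes: all Egr1 and Nr4a1 UMIs of dendritic cells came from them, with 0 in the 46 barcodes of intermediate depth and 0 in the 20 under 1500 UMIs, and Dusp1 was 0.19 without them. With the mean of per-cell CPM the ratios were 0.95 for Egr1, 0.10 for Nr4a1 and 0.57 for Dusp1. Macrophages were higher in Egr1 (1.38) and Nr4a1 (1.37) and lower in 6 members, beside 11.7% called higher and 23% lower. The Egr1 ratio of macrophages turned to -0.02 without the 18 deep barcodes and to -0.66 with the 5% mitochondrial maximum, and Nr4a1 became 0.17 with that maximum.

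Plasma cells, neutrophils and erythroid cells put much of their RNA into a few products, and most other genes were lower in them as CPM. The median gene had a log2 ratio of -1.14 in plasma cells over B cells, -1.22 in neutrophils over B cells and -2.02 in erythroid cells over B cells, and size factors moved these ratios up by 0.93, 0.99 and 1.77. Plasma cells were lower in 4 members, Nr4a1 (-5.30), Dusp1 (-2.46), Junb (-2.36) and Klf2 (-2.17), beside 55.5% of all genes called lower and 4.74% higher, all 4 below the median gene. Their Fos, Fosb, Jun and Egr1 had positive ratios, above the median gene, which with size factors passed 2-fold, at 1.88, 1.34, 1.38 and 1.78. Neutrophils were higher in Dusp1 (1.82), Ier2 (1.49) and Egr1 (1.32), beside 9.24% of genes. They were lower in Fosb (-3.82), Jun (-2.79), Jund (-2.34) and Klf2 (-1.58), beside 56.7% of genes. With size factors the split in neutrophils over B cells was 6 at least 2-fold higher and 3 lower: Fos (1.28), Nr4a1 (1.33) and Junb (1.05) joined the higher ones, and Klf2, at -0.59, left the lower ones. Erythroid cells were lower in all 10 members, beside 78.7% of genes called lower and 4.84% higher, and Jund, Ier2 and Dusp1 were under 2-fold once haemoglobin and immunoglobulin UMIs were taken out of the totals. With size factors 5 of the 10 stayed at least 2-fold lower, while Jund (-0.59), Egr1 (-0.97), Ier2 (-0.64), Dusp1 (-0.75) and Nr4a1 (-0.95) did not. The shares of all genes in this paragraph are for CPM ratios. Those with size factors were not counted, so the member counts with size factors in all 3 types have no share beside them.

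Within B cells, marginal zone cells carried a different set from follicular cells. The 121 marginal zone cells were gated by S1pr3, Cd9 and Dtx1, without UMIs of Fcer2a, Bhlhe41 or Zbtb32. The 821 follicular cells were gated by Fcer2a and Ighd, without UMIs of S1pr3, Cd9, Dtx1 or Cd93. Median depths were 8824 UMIs in marginal zone and 4903 UMIs in follicular cells, and the part of depth in these ratios was not tested. Marginal zone cells were lower in 5 of 10 members, beside 5.11% of 5913 genes called lower, and higher in 0, beside 2.05%. Klf2 had 551 CPM in marginal zone cells and 1576 CPM in follicular cells (log2 ratio -1.52). Ier2 had 42.9 CPM in marginal zone and 139 CPM in follicular cells (-1.70), Jund 510 and 1138 CPM (-1.16), and Junb 218 and 471 CPM (-1.11), in the same order. Egr1 rested on 3 UMIs in marginal zone cells, 2.57 CPM, against 28.7 CPM in follicular cells, a log2 ratio of -3.48 with an interval from -5.77 to -1.90, and its sign turned to 1.51 with the 5% mitochondrial maximum. Jun, by contrast, had 445 CPM in marginal zone and 333 CPM in follicular cells, and Fosb 333 CPM in marginal zone and 265 CPM in follicular cells, log2 ratios of 0.42 and 0.33 that were not called. Jun and Fosb together with Fos therefore made up a larger part of AP-1 in marginal zone cells: Jun was 23.6% there and 12.1% in follicular cells, and Fosb 17.7% there and 9.61% in follicular cells.

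The other B cell subsets stood nearer to follicular cells. The 124 B-1-like cells were lower than follicular cells in Junb (log2 ratio -1.19) and Ier2 (-1.06), beside 2.7% of genes called lower and 1.79% higher, and Ier2 was -0.90 with no mitochondrial maximum. The 191 transitional cells differed by at least 2-fold in 0 of 9 members with enough UMIs, beside 1.09% of genes called higher and 0.671% lower. Haemoglobin made up 13994 CPM in B-1-like, 7995 CPM in marginal zone and 6532 CPM in transitional cells, against 2819 CPM in follicular cells. Median depth was 8469.5 UMIs in B-1-like and 5249 UMIs in transitional cells, against 4903 UMIs in follicular cells. The part of haemoglobin or depth in these ratios was not tested.

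Within T cells, 266 CD8 cells were lower than 555 CD4 cells in Nr4a1 and Dusp1, beside 1.55% of 6139 genes called lower and 1.35% higher. Nr4a1 had 8.90 CPM in CD8 and 23.1 CPM in CD4 cells (log2 ratio -1.38, or -0.75 with the 5% mitochondrial maximum), and Dusp1 had 72.0 CPM in CD8 and 167 CPM in CD4 cells (-1.21). Fos, Junb and Egr1 had ratios of -0.80, -0.81 and -0.73, below the call. Klf2 was 1081 CPM in CD8 and 880 CPM in CD4 cells, a log2 ratio of 0.30. Effector-memory cells, 103 in number, were called higher or lower than 573 naive cells in 0 of 8 members, beside 6.61% of genes called higher and 3.25% lower. Fosb, with too few UMIs for a call, was 48.8 CPM in effector-memory and 11.4 CPM in naive cells.

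The monocyte subsets differed in the gene known to be needed for 1 of them. Nr4a1 had 787 CPM in 56 nonclassical monocytes and 144 CPM in 124 classical monocytes, a log2 ratio of 2.45. Klf2 had 1319.5 CPM in nonclassical and 534 CPM in classical cells (1.30), and Dusp1 had 1361 CPM in nonclassical and 579 CPM in classical cells (1.23). These 3 of 9 members were called higher and 0 lower, beside 8.32% of 3631 genes called higher and 9.61% lower. Fos did not follow, with 857 CPM in nonclassical and 1036 CPM in classical monocytes. Depth differed between them, with medians of 5690.5 UMIs in nonclassical and 13288.5 in classical cells.

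**Figure D3:**
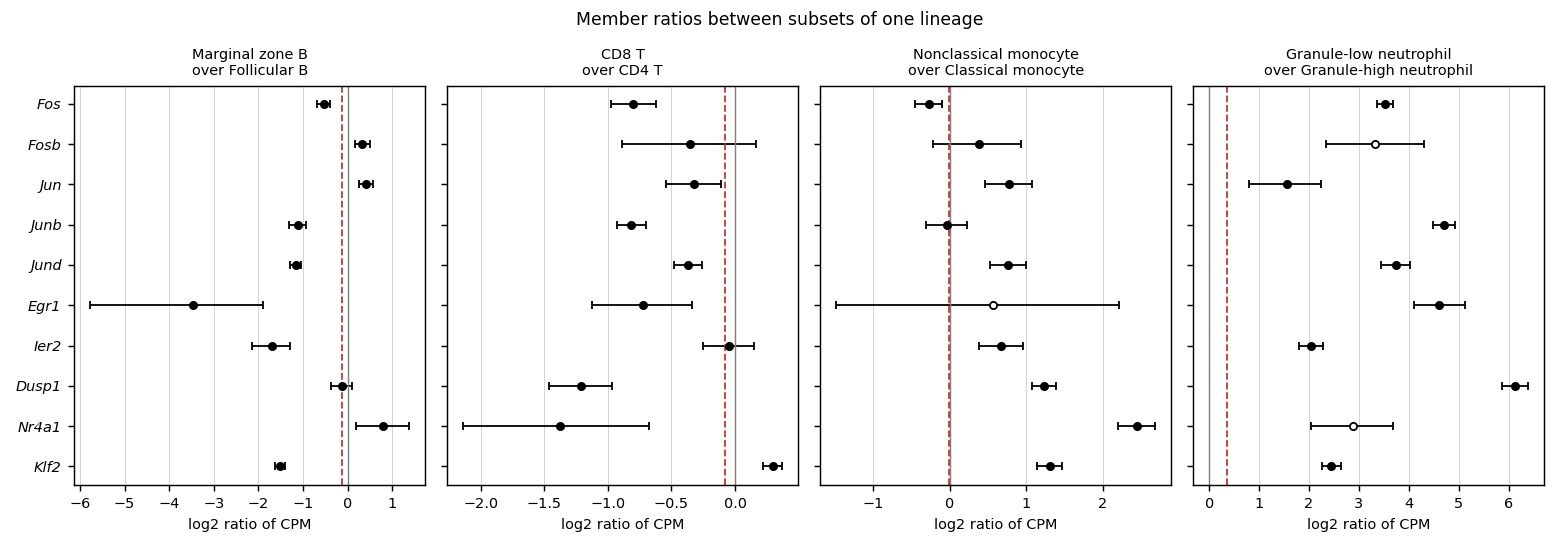
Log2 ratio of CPM for each member (points, with 95% counting intervals) in 4 subset comparisons. The solid line is a ratio of 1, the dashed line the median gene, and open points are members with under 100 UMIs. Marginal zone B cells are low in Klf2 and Ier2, nonclassical monocytes are high in Nr4a1, and granule-low neutrophils are high in every member with enough UMIs.

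The widest differences between subsets were among neutrophils. Ngp, Ltf and Camp encode secondary granule proteins made by maturing neutrophils, and cells with up to 10 UMIs of the 3 and at least 3 UMIs of Cxcr2, Csf3r and Mmp9 were set against cells with at least 200. The 66 granule-low cells had 16495 CPM of the 10 members together, and the 120 granule-high cells had 1244 CPM. Dusp1 had 4913 CPM in granule-low and 70.1 CPM in granule-high cells (log2 ratio 6.13), Junb 3209.9 CPM in granule-low and 123 CPM in granule-high cells (4.70), and Fos 3454 CPM in granule-low and 299.7 CPM in granule-high cells (3.53). Egr1, at 578 CPM in granule-low and 23.7 CPM in granule-high cells, had a ratio of 4.61. All 8 members with enough UMIs were called higher, beside 29.9% of 1966 genes called higher and 15.3% lower, and the ratios were 1.55 to 6.13 against 0.36 for the median gene.

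Granule-low cells were also shallower, and size factors lowered every one of these ratios by 0.69, which left Jun at 0.86, under 2-fold. The median was 2602.5 UMIs in granule-low and 15279.5 UMIs in granule-high cells, and S100a8, a calcium-binding protein gene of neutrophils, was 62708 CPM in granule-low and 186086 CPM in granule-high cells. Counted per cell, with no scaling, Dusp1 averaged 14.03 UMIs in granule-low and 1.16 in granule-high cells, Fos 9.86 in granule-low and 4.95 in granule-high cells, and Junb 9.17 in granule-low and 2.03 in granule-high cells. Klf2, Ier2 and Jun did not follow per cell. Klf2 averaged 5 UMIs in granule-low and 5.3 in granule-high cells, Ier2 2.92 in granule-low and 4.1 in granule-high cells, and Jun 0.333 in granule-low and 0.658 in granule-high cells. The scaled and per-cell values thus had the same direction for Dusp1, Junb, Fos, Egr1 and Jund.

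**Figure D4:**
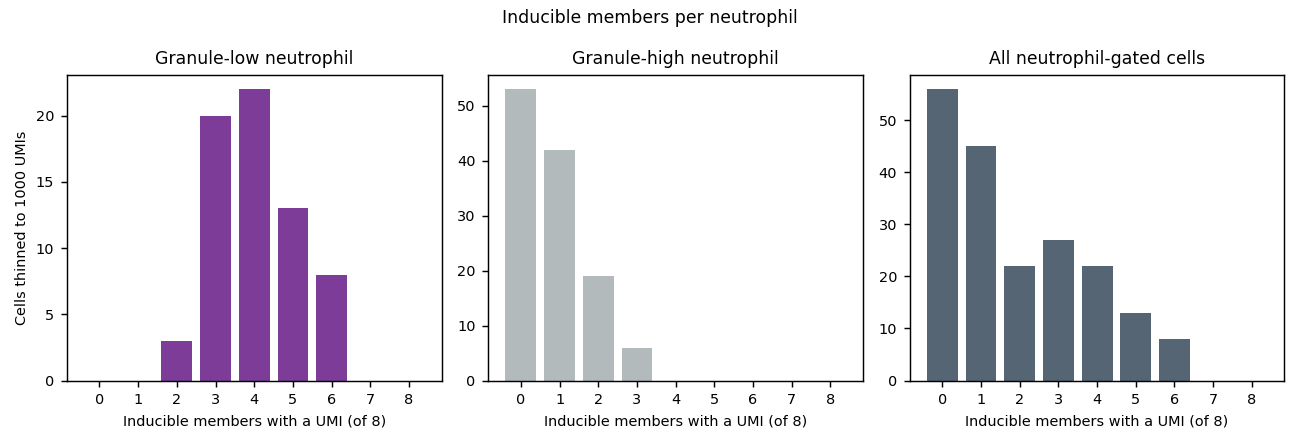
Members per neutrophil after thinning to 1000 UMIs: number of cells (vertical axis, own scale in each panel) against the number of the 8 inducible members detected, in 1 thinning draw, for granule-low cells, granule-high cells and all neutrophils. Granule-low cells lie mostly at 3 or more members and granule-high cells mostly at 0 or 1.

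Lists of related genes were counted beside the members. Of 24 other immediate early genes, 8 of 8 with enough UMIs were higher in granule-low than in granule-high neutrophils, beside 29.9% of all genes, among them Cebpb, a myeloid transcription factor (2785 CPM in granule-low and 279.6 CPM in granule-high cells), and Zfp36, which destabilises cytokine transcripts (2255 CPM in granule-low and 169 CPM in granule-high cells). In monocytes against B cells 8 of 20 were higher and 5 lower, beside 15.6% and 16% of all genes, with Atf3, a stress-induced factor, at 148 CPM in monocytes and 7.34 CPM in B cells. Nonclassical monocytes were higher than classical ones in 6 of 15 and lower in 1, beside 8.32% and 9.61% of all genes. NK cells were higher than T cells in 8 of 17 and lower in 0, beside 9.02% and 6.29% of all genes, with the phosphatase gene Dusp2 at 1406 CPM in NK cells and 415 CPM in T cells and Nr4a2, a relative of Nr4a1, at 147 CPM in NK cells and 17.4 CPM in T cells. T cells against B cells gave 5 higher and 8 lower of 21, beside 8.17% and 10.6% of all genes. In marginal zone against follicular B cells 1 of 14 was higher and 1 lower, beside 2.05% and 5.11% of all genes, and the higher one was Myc, at 249 CPM in marginal zone and 79.2 CPM in follicular cells.

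The next list held 11 heat shock and handling genes. None of 10 tested was called in T cells against B cells, beside 8.17% of all genes called higher and 10.6% lower. The same held in NK cells against B cells, beside 11.2% called higher and 11% lower. In neutrophils 9 of 10 were lower than in B cells, beside 56.7% of all genes. Monocytes were higher than B cells in 2 of 10, beside 15.6% of all genes. These were the stress-inducible Hspa1a and Hspa1b, with Hspa1a at 136 CPM in monocytes and 7.01 CPM in B cells. In granule-low against granule-high neutrophils, 6 of 6 were higher, beside 29.9% of all genes, with a median log2 ratio of 1.39, while the list summed to 3974 CPM in granule-low and 1489 CPM in granule-high cells. The part of this list's response in the neutrophil member levels was not tested.

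The 8 KLF2 targets and trafficking genes were read beside Klf2. Marginal zone cells were lower than follicular cells in 4 of 8, beside 5.11% of all genes. The median log2 ratio was -1.26 beside -0.13 for all genes. Ccr7, the chemokine receptor for lymphoid tissue entry, had 83.3 CPM in marginal zone and 245 CPM in follicular cells. Plasma cells were lower than B cells in 7 of 8 and higher in 1, beside 55.5% of all genes called lower and 4.74% higher. In T cells against B cells, 2 of 8 were higher and 0 lower, beside 8.17% and 10.6% of all genes. Of the 19 upstream MAP kinase and SRF genes, T cells were lower than B cells in 2 and higher in 0. The lower count was near the 10.6% of all genes. Marginal zone cells were lower than follicular cells in 2 of 17 and higher in 0, beside 5.11% and 2.05% of all genes. Mef2c, an upstream factor with a role in B cells, was 7.0 CPM in T cells, against 1129 CPM in B cells. Of the 14 lymphocyte activation genes, 4 of 12 were higher and 5 lower in T cells than in B cells, beside 8.17% and 10.6% of all genes. In NK cells against T cells, 1 of 10 was higher and 5 lower, beside 9.02% and 6.29% of all genes. Cd69, an early activation marker, was 82.4 CPM in NK cells and 267 CPM in T cells.

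Co-detection asked whether the members stood in the same cells. In cells thinned to 1000 UMIs, the share with both genes of a pair was divided by the product of the separate shares. Values are medians over 10 thinning draws with their range, which covers the draw of UMIs and not counting error over cells. In B cells the Fos and Fosb pair had a ratio of 1.35 (1.21 to 1.40), Fosb and Jun 1.30 (1.20 to 1.36), Junb and Ier2 1.27 (1.02 to 1.43), and Fos and Jun 1.17 (1.11 to 1.27). Over all pairs of the 8 inducible members, which leave out Jund and Klf2, the median ratio was 1.15 in T cells, 1.16 in NK cells, 1.19 in monocytes and 1.16 in B cells. It was 1.09 (1.03 to 1.15) in follicular B cells alone. Independent genes drawn in simulated B cells gave 1.01. Each was drawn at the same share in every cell, so a value near 1 was set in advance. It checks the calculation and leaves out differences between cells or subsets.

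Shares of cells with at least 3 of the 8 inducible members were set beside the product of the separate shares. The medians over draws lay above the product in NK, T and B cells and monocytes. In the draw used for the counts, however, the counting intervals took in the product in 3 of these. They were 9.19% to 16.6% in NK cells, beside 10.9%, 6.36% to 9.81% in T cells, beside 6.38%, and 30.1% to 44.3% in monocytes, beside 32.9%. Only in B cells, at 14.4% to 17.0% beside 12.9%, did the interval lie above. Over the 10 draws, cells with at least 3 made up 15.8% of NK cells, beside 12.4% by the product, and 7.76% of T cells, beside 6.04%. They were 36.5% of monocytes, beside 32.9%, against 15.6% of B cells, beside 12.8%. For B cells the ratio of observed to product was 1.49 at 500 UMIs per cell, 1.06 at 2000 and 0.94 without thinning, so its side of 1 depended on depth. The Fos and Fosb ratio of B cells stayed above 1 in all of these, at 1.38, 1.25 and 1.17. In macrophages 3.92% of thinned cells held at least 3, beside 0.432% by the product, and in dendritic cells 9.20%, beside 1.45%. These are the types whose members came from few deep barcodes.

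The neutrophil pairs were read over all neutrophils and within the granule-low class. Over all neutrophils the median ratio of inducible pairs was 1.67 (1.54 to 1.77), and the Junb and Dusp1 pair reached 1.98 (1.83 to 2.17). Within granule-low cells the median was 1.01 (0.991 to 1.04) and the Junb and Dusp1 pair 0.998, where 95.5% of cells held Dusp1 and 93.9% Junb. A pair ratio cannot exceed 1 over the larger share, so with shares this high it can hardly leave 1, and these values do not show whether the members stood together within the class. Of granule-low cells 95.5% held at least 3 members, beside 96.3% by the product, and of granule-high cells 3.33%, beside 2.75%. Plasma cells had a median ratio of 1.68 (1.43 to 1.99) in 69 cells, with Fos and Fosb at 1.74 (1.30 to 2.11). In the draw used for the counts, that median rested on 2 pairs, Fos with Jun and Fos with Fosb, beside 14 pairs in neutrophils and 27 in B cells, so it was not ranked against them.

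**Figure D5:**
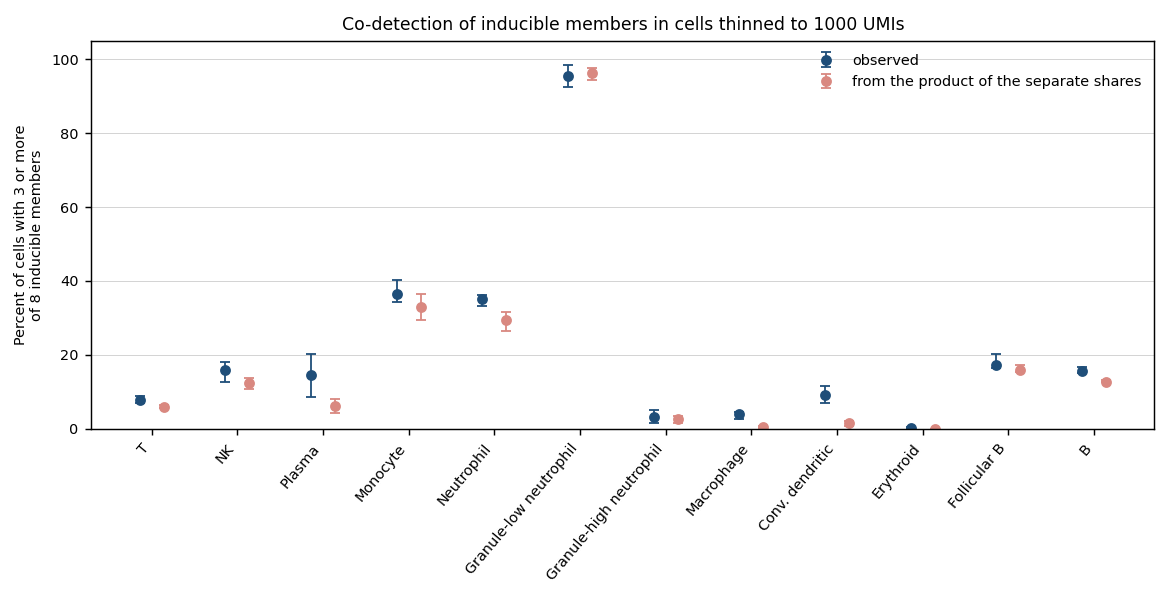
Percent of thinned cells (vertical axis) with at least 3 of the 8 inducible members, observed and from the product of the separate shares, by cell type. Points are medians and bars the range over 10 draws. Granule-low neutrophils stand at 95.5% and granule-high neutrophils at 3.33%, each close to its own product, while all neutrophils stand at 35.2% beside 29.4%.

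Co-detection was also read between the members and genes outside the set. With Klf6, an induced zinc finger factor, the median ratio of an inducible member was 1.16 in B cells, with Zfp36 1.11, and with Cd69 1.10 (1.05 to 1.19). In T cells the ratio with Cd69 was 1.15 (1.03 to 1.34). Hspa8, a constitutive heat shock gene, was held by 80.7% of thinned B cells and 86.6% of thinned T cells, so its ratio can hardly exceed 1 and cannot be set against these. In monocytes, which held Hspa1a, the members' ratio with it was 1.23 (0.892 to 1.39), a range that takes in 1.

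B cells with at least 3 of the 8 members were then set beside B cells with 0, over all their UMIs, as a description. Median mitochondrial shares were 6.61% in the 458 cells with at least 3 and 6.63% in the 773.5 cells with 0, and median depths were 4951 and 5291.5 UMIs in the same order. The heat shock list summed to 5825 CPM in cells with at least 3 and 6866 CPM in cells with 0. Its direction differed between types when summed over thinned UMIs in 1 draw. It was lower in cells with at least 3 among all B cells, at 5694 CPM beside 6258 CPM in cells with 0, and among monocytes, at 7143 beside 8741 CPM. It was higher in cells with at least 3 among follicular B cells alone, at 5816 beside 5253 CPM, naive T cells, at 8125 beside 6594 CPM, NK cells, at 6857 beside 6493 CPM, and neutrophils, at 3071 beside 1571 CPM. The other immediate early list summed to 3461 CPM in cells with at least 3 and 2321 CPM in cells with 0. Klf2, which did not choose the cells, was 1763 CPM in cells with at least 3 and 977 CPM in cells with 0, and Jund was 1297 CPM in cells with at least 3 and 718 CPM in cells with 0. Cd69 was 461 CPM in cells with at least 3 and 253 CPM in cells with 0.

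Ranked over all genes, Klf4, Klf6, S100a8 and S100a9 were among the 10 highest ratios in all 10 draws. Klf4, a relative of Klf2 that restrains proliferation, was 122 CPM in B cells with at least 3 members and 60.3 CPM in those with 0. S100a8 was 312 CPM in B cells with at least 3 members and 135 CPM in those with 0, so a transcript of neutrophils, which are high in several members, moved with the set, and its part was not tested. The lowest ratios were of cycling genes, among them Dut (log2 ratio -1.41) and Stmn1 (-2.36) in all 10 draws and Pclaf (-3.05) and Top2a (-2.13) in 9. In T cells, 78 cells with at least 3 members and 341.5 with 0 had median mitochondrial shares of 4.82% and 4.74% in that order. The heat shock list was 7180 CPM in T cells with at least 3 and 7311 CPM in those with 0 over all UMIs, an order that turned over thinned UMIs, at 7250 CPM in those with at least 3 and 6845 CPM in those with 0. Cd69 was 430 CPM in T cells with at least 3 and 220.5 CPM in those with 0. Klf2 hardly differed, at 955 CPM in T cells with at least 3 and 913 CPM in those with 0. Cd8b1, a CD8 chain, had a log2 ratio of -1.67, and was among the 10 lowest in every draw.

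As a further sign of cell condition, cells were divided by mitochondrial share. In B cells Fos was 375 CPM in 307 cells with up to 5% and 482 CPM in 2653 cells above 5% and up to 10%. It was 461 CPM in 201 B cells above 10%, which the filter had removed. Fosb was 226, 252 and 324 CPM in these classes, and Klf2 was 1034, 1357 and 1275 CPM. Dusp1 was nearly flat in B cells, at 142, 143 and 167 CPM. Macrophages differed more between these classes, with Fos at 70.2, 294 and 98.4 CPM. Their Fosb was 3.05, 242 and 21.0 CPM and their Egr1 9.16, 152 and 17.8 CPM. The macrophage classes numbered 289, 165 and 498 cells, so the filter removed more macrophage-gated cells than the 454 it kept. Few deep barcodes carried the middle class. Of the 66 Fosb UMIs of kept macrophages, 65 were in it, and 64 were in the 18 kept barcodes of at least 4000 UMIs. Those 18 also held 85 of 102 Fos and 32 of 44 Egr1 UMIs. The macrophage values therefore do not separate mitochondrial share from these barcodes. In T cells Fos was 214 CPM with up to 5% and 220 CPM above 5% and up to 10%. In NK cells it was 177 and 216 CPM in the same order. The part of handling in these levels was not tested, since no untouched or transcription-blocked sample was used here.

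Across the 9 types the members did not form 1 profile. With log2(CPM + 1) over 9 types that share 1 table, Pearson's r was 0.92 for Junb and Klf2, 0.91 for Fosb and Jun, 0.91 for Dusp1 and Nr4a1, and -0.09 for Jund and Dusp1, the lowest of the 45 pairs. Among 9717 other genes the profile most like that of Fos was Tiparp (0.96), then Myo5a (0.94), Arid3a (0.93), Dhdds (0.93) and Tmem184b (0.92). For Klf2 it was Sptbn1 (0.99), then Zfp407 (0.99), Mob4 (0.99), Vamp2 (0.98) and Tmco6 (0.98). With 9 points, the low values of erythroid cells weigh on each of these.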

How the data were processed

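The authors deposited 1 table of whole-number UMI counts per gene and barcode, with no normalization in its values. Per the labels' protocols, 10x Genomics 3-prime libraries were sequenced on Illumina instruments and mapped to mm10, version 3.0.0 of the reference. Which programs aligned and counted the reads is not given in the sources used here. Because a 3-prime library counts 1 tag per molecule, CPM carries no length term.

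The 10 members, the gene lists and the tests were chosen with earlier results of these data known. Kept barcodes had at least 200 genes and at most 10% mitochondrial UMIs (101 and 857 barcodes failed, 936 either). Cells passing several gates (313) or none (456) were left out, as were gates under 50 cells. CPM carries exact Poisson intervals, ratios conditional binomial and shares Clopper-Pearson intervals. A gene needed at least 100 UMIs over both types to be called at 2-fold. No replicates exist, so p-values were not computed.

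The text names all 10 members, members of fixed lists, the 5 genes most like Fos and Klf2, and genes ranked between B or T cells with many and with no members. The ranks depended on the thinning draw, so genes recurring in 10 draws are named, and this, the neutrophil classes and the depth and mitochondrial classes were chosen after the data were seen. The ratio step was tested on simulated data for T over B cells. Of 9387 genes, 200 were changed 4-fold, all 200 were called with the right sign, 2 unchanged genes were called, and 95.4% of intervals held the known ratio. The simulated sums were drawn from the Poisson model that the intervals assume, without spread between cells. They therefore check the calculation and not the calls on the real counts.

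Promoter windows came from RefSeq tables, and 8 of the 10 members were matched. Python 3.11.15, numpy 2.4.6, scipy 1.17.1, pandas 2.3.3, matplotlib 3.10.9 and scanpy 1.11.5 (for Scrublet) were used.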

Additional observations from a re-analysis of the deposited data

How the results depend on the processing

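Of 70 called member ratios, 560 values under other settings fixed at the start kept the sign except 2, both at a mitochondrial maximum of 5%: Egr1 in macrophages over B cells (-0.66) and Egr1 in marginal zone over follicular B cells (1.51). In all, 17 called ratios came under 2-fold under at least 1 of these settings. Of 81 values under settings added after seeing the data, 2 reversed, both Egr1 in macrophages over B cells: -1.14 with the mean of per-cell CPM and -0.020 without macrophages of at least 4000 UMIs. The cause was not tested.

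At the 5% maximum, Fos in T over B cells was -0.81 and Klf2 in marginal zone over follicular B cells was -1.64, and Klf2 in that pair was -1.34 with the mean of per-cell CPM. Size factors gave 1.38 for Ier2 in NK over T cells and 5.44 for Dusp1 in granule-low over granule-high neutrophils. The share of cells with at least 3 of 8 members, over that from the product, was 1.22 in B cells and 1.26 in neutrophils in the draw used for these comparisons. In B cells it was 1.49 at 500 UMIs, 1.06 at 2000, 0.94 unthinned and 1.55 at the 5% maximum. In neutrophils it was 1.80 at 500 UMIs, 0.80 at 2000 and 0.95 unthinned. Fos and Fosb in B cells were at 1.65 at the 5% maximum, where 307 B cells were left.

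No paired analysis was possible because the counts stood in 1 table with no map from barcodes to samples. Scrublet called 177 cells doublets (2.69%). Depth limits the rarest members: Egr1 and Nr4a1 were each at 33.5 CPM over all cells, and macrophages had a median of 826.5 UMIs.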

Other observations

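Gates under 50 cells were left out of the comparisons, and some of their member levels lay outside the range of the larger types. The 6 basophil or mast cells had 605 CPM of Egr1 (450 to 795), 1269 CPM of Junb and 1091 CPM of Jun, while Klf2 was 47.5 CPM, on 4 UMIs. The 10 plasmacytoid dendritic cells had 726 CPM of Jun (579 to 898) and 553 CPM of Fos. Among T cells, the 35 regulatory T cells, gated by Foxp3, had 133 CPM of Nr4a1 (91.3 to 188) and 321 CPM of Dusp1 (253 to 401), beside 22.1 CPM of Nr4a1 and 143 CPM of Dusp1 in all T cells, which include them. The 17 gamma delta T cells had 830 CPM of Junb (674 to 1011) and 1076 CPM of Klf2. With so few cells, 1 cell can carry much of a value, and the spread between cells was not tested.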
